A study of Mus musculus with 6 samples.

Results

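Bdnf and Ntf3 encode neurotrophins, and Ngfr and Ntrk2 encode neurotrophin receptors. Chromatin accessibility at these 4 genes was described in cells that were lineage-traced from basal cells in mouse olfactory epithelium, without injury and 24 h after it. The genes were chosen by name, 4 of 21938 protein-coding genes, with earlier results of the same injury comparison known. Their differences between the groups are therefore given as a description: counts past a threshold come from fits over all start windows or tiles and are no independent test of the 4 genes. They hold 22 of the 93513 distinct annotated starts of protein-coding genes: 9 of Bdnf, 3 of Ntf3, 1 of Ngfr and 9 of Ntrk2. The gene bodies and 50 kb on each side were divided into 1732 of the 5451055 tiles of 500 bp in the genome. Of these, 250 counted as open, among 514026 open tiles in all; an open tile had at least 5 times the mean level of the median tile.

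All mice carried Krt5CreER and Rosa26 LSL-YFP/LSL-YFP, so that Cre is made in Krt5-expressing cells and YFP marks them and the cells they give rise to. The 3 uninjured libraries served as controls, and the 3 injured libraries were made 24 h after an intraperitoneal injection of methimazole, a drug that destroys most of the epithelium. The animals of replicate 1 were 8 weeks old, those of replicate 2 were 6 weeks old and those of replicate 3 were 6 to 7 weeks old, in both groups. YFP-positive cells that excluded propidium iodide were sorted from the dorsal epithelium, each animal being handled on its own, and single nuclei were profiled by ATAC-seq, in which a transposase cuts open DNA.

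Neurotrophins are secreted growth factors made as longer precursors. The mature forms bind Trk receptor tyrosine kinases, which act through adaptor proteins on MAP kinase, phosphoinositide 3-kinase and phospholipase C signalling. Ntrk2 encodes TrkB, the receptor of BDNF that also binds NT-3, the product of Ntf3. Ngfr encodes p75NTR, a receptor that binds every neurotrophin and also their precursors, and is a known marker of olfactory ensheathing glia. Bdnf has many alternative first exons that are spliced to a shared coding exon, and Ntrk2 makes both kinase-bearing and truncated receptors.

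The sequences below are those that the values later in the text turn on (GRCm38, which is mm10; from RefSeq). The first set gives the 250 bases before the most open start of each gene, 5′ to 3′ in the direction of transcription. None of these bases lies in an annotated exon of the gene. Bdnf lies on the plus strand at chr2:109694159-109694408, Ntf3 on the minus strand at chr6:126166911-126167160, Ngfr on the minus strand at chr11:95587736-95587985 and Ntrk2 on the plus strand at chr13:58807447-58807696.
Bdnf, start 7: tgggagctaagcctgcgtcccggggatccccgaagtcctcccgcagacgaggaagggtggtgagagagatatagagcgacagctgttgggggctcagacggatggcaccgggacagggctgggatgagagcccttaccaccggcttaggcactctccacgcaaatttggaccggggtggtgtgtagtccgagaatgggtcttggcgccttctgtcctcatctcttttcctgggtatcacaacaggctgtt
Ntf3, start 1: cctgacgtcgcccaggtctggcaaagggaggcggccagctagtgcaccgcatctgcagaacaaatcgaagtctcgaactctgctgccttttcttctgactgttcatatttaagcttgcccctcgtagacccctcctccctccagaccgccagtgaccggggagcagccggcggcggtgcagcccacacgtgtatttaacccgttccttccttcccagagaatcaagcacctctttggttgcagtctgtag
Ngfr, start 1: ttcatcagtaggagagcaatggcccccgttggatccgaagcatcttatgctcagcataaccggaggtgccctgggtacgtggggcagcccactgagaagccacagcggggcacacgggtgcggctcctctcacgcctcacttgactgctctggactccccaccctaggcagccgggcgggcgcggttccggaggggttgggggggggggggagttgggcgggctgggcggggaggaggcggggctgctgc
Ntrk2, start 4: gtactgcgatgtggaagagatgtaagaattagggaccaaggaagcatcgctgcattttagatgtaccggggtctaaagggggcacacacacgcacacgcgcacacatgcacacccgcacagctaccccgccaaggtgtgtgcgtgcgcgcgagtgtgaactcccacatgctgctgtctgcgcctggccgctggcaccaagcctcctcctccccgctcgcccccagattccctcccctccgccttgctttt

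The G and C content of these 4 stretches was 59.6%, 57.6%, 68.8% and 60.8%, and they held 13, 14, 16 and 17 CpG pairs. The median over 1 most open start of each of the 21938 genes was 57.2% and 12 CpG pairs. Both strands were searched for the letters TGANTCA (AP-1), TGACGTCA (CRE), GGAATG (TEAD) and TGTGGT (RUNX), and none of the 4 stretches held any of them. Over the 250 bases before the starts of all genes the shares with a match were 5.91%, 2.15%, 10.4% and 12.2%. Among the other Bdnf starts, the 250 bases before start 3 held 1 AP-1 and 1 TEAD match.

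The second set gives 150 bases, plus strand, around the highest density of cut sites in 6 tiles outside the starts. They are the highest tile of the Ngfr and of the Ntrk2 locus, both within introns (chr11:95576052-95576201 and chr13:58971504-58971653), and 4 tiles whose level differed between the groups in the basal cells, as the values further on show. These are a tile downstream of Ntf3 (chr6:126068766-126068915), a tile in an Ntf3 intron (chr6:126142753-126142902), a tile downstream of Ngfr (chr11:95550504-95550653) and a tile in an Ntrk2 intron (chr13:59024521-59024670). Capitals mark AP-1 letters in the first pair and RUNX letters in the downstream Ngfr tile.
Ngfr, intron, highest tile: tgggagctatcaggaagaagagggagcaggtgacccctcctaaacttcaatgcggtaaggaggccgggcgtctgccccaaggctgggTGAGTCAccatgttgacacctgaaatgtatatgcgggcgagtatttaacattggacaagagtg
Ntrk2, intron, highest tile: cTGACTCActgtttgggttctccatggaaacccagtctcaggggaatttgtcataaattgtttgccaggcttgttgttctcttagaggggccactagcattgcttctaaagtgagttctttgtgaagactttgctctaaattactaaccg
Ntf3, downstream: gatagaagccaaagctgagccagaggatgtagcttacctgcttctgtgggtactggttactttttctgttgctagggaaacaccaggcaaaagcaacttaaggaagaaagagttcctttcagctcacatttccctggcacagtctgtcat
Ntf3, intron: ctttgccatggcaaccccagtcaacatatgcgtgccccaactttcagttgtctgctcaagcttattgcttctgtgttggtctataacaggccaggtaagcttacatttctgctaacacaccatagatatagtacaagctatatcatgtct
Ngfr, downstream: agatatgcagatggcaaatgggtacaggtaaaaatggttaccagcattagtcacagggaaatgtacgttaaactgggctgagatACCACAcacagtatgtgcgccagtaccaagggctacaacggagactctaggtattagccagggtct
Ntrk2, intron, lower tile: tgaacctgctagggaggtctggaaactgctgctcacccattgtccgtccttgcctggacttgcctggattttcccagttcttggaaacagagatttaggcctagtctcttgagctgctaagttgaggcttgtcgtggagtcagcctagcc

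Adjacent open tiles formed 97 open regions in the 4 loci. AP-1 letters were in the highest tile of 28 of the 97, or 28.9%, against 26.4% of the highest tiles of 199423 open regions genome-wide. The CRE letters were in 0 of the 97, against 0.786%. TEAD letters were in 28 and RUNX letters in 31 of them, 28.9% and 32.0%, against 27.2% and 34.6%. A match is a string of letters and not a bound site.

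The libraries held 420 to 1338 barcodes with at least 2000 fragments, carrying 14825320 to 44875242 cut sites. The replicate 3 libraries shared 34 such barcodes, against at most 4 in any other pair of libraries. In the shallower copy of these barcodes 97.2% of the fragments were identical in the deeper copy, and leaving the shallower copies out changed no count of members past the threshold. Clusters named from marker genes as like horizontal basal cells (HBC-like), the reserve stem cells named by the labels, made up 59.5% to 74.4% of the barcodes in replicates 1 and 2 of both groups. In replicate 3 they made up 25.0% uninjured and 20.6% injured. Clusters 3, 4 and 5 also matched the basal marker list best, with median log2 levels over the other clusters of 0.85, 0.67 and 0.62. They were left unnamed because their 10 top genes held more markers of another list. Uninjured replicate 3 had 5, 150 and 175 cells in them, and injured replicate 3 had 210, 74 and 22. The keratin genes Krt5 and Krt14, which mark horizontal basal cells, were open in every library, at levels of 19.8 to 37.0 and 20.1 to 38.1 in the scaled unit defined next. Trp63, a transcription factor gene of these cells, was at 2.13 to 4.72, and Icam1, a surface marker, was at 35.5 to 52.3 uninjured and 22.9 to 29.2 injured, without overlap. Of the 10 markers used for these cells 1 was lower after injury and 0 higher by the threshold given next, with a median log2 change of -0.10. The HBC-like cells of the groups came from different clusters: cluster 1 had 1371 cells, 3 of them uninjured, and cluster 2 had 924 cells, 8 of them injured. In summed libraries, fewer cells of a type and less accessibility per cell cannot be told apart.

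Values for starts are cut sites within 1 kb of the start in CPM (counts-per-million of the library), scaled by TMM (trimmed mean of M values) over all start windows. All windows have the same width, so levels can be set side by side between genes. Of 76365 windows tested, 2.36% were higher and 2.01% lower after injury past the threshold, which was a Benjamini-Hochberg adjusted p below 0.05 from the quasi-likelihood test of edgeR, and 4.37% were either. These counts, 1804 and 1535, became 2022 and 24451 when libraries were scaled by total cut sites, and 1414 and 37289 when TMM factors came from 10 kb bins. The median log2 change over these windows moved from 0.01 to -0.26 and -0.50, so a member's sign is read with that shift. Open tiles held 79.5%, 75.6% and 77.9% of cut sites in the uninjured libraries and 72.4%, 66.8% and 74.6% in the injured ones, without overlap. The part of that difference in the shift was not tested. Of the 22 member starts 20 passed the low-count filter, and 0 of the 20 were past the threshold in either direction, with edgeR or with DESeq2. Under the other scalings Ntf3 starts 1 and 2 and the Ngfr start were, in the lower direction. With the replicate number as a block, 2 Bdnf starts that share cut sites were, in the higher direction. The groups did not overlap at 5 of the 20, and over all windows tested 27.4% did not overlap.

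**Figure D1:**
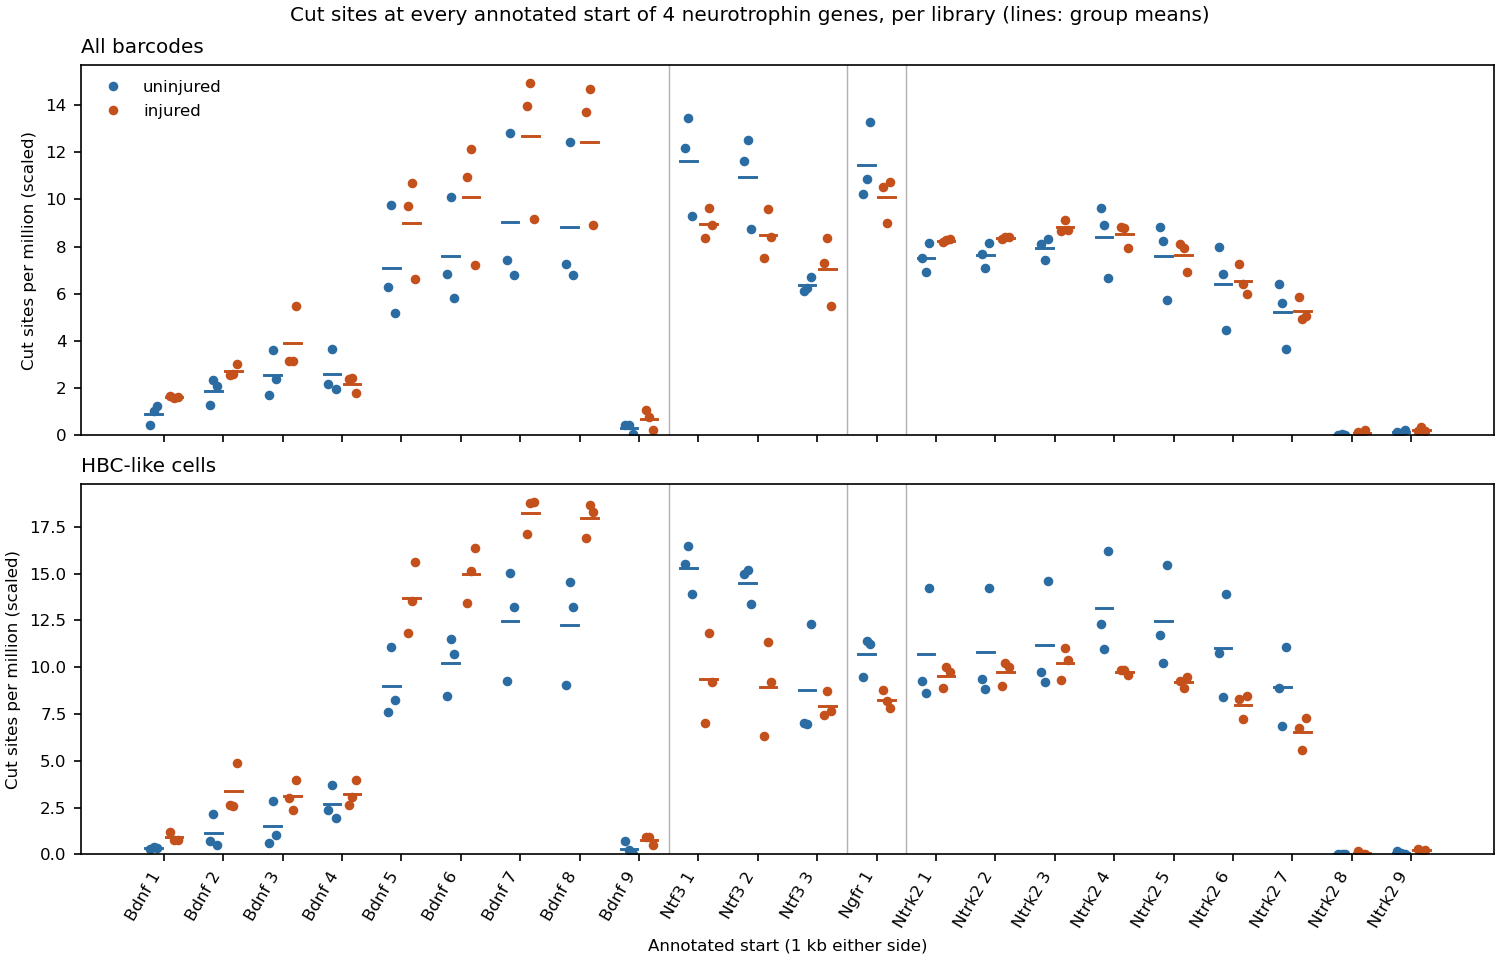
Scaled cut sites (CPM) within 1 kb of each of the 22 annotated starts, numbered along each gene, with points for the 6 libraries and lines for group means; the upper panel holds all barcodes and the lower panel HBC-like cells. At Bdnf start 7 the HBC-like injured libraries lie at 17.1 to 18.8 and the uninjured ones at 9.27 to 15, and at Ntf3 start 1 the order is the opposite.

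Among the ligands, Bdnf was most open around starts 5 to 8, whose windows share cut sites. At start 7 (position 109694409) the uninjured libraries had 7.44, 12.8 and 6.81 CPM and the injured ones 13.9, 14.9 and 9.16. The second uninjured library lay above the third injured one, so the groups overlapped. Each injured library lay above the uninjured one of its number. Means were 9.02 ± 3.30 and 12.7 ± 3.09 (SD, n = 3), a log2 change of 0.47 ± 0.25 (SE). The sign at start 7 turned with TMM factors from 10 kb bins, where the log2 change was -0.04. The window of start 8 holds nearly the same cut sites. With the replicate number as a block, starts 7 and 8 were past the threshold in the higher direction. Over all windows that fit had more calls in both directions.

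The upstream Bdnf starts were less open. Start 1 had 0.423, 1.05 and 1.23 CPM uninjured and 1.66, 1.60 and 1.60 injured, with no overlap and a log2 change of 0.80 ± 0.42 (SE). Start 2 had 1.27, 2.33 and 2.09 against 2.55, 2.61 and 3.04, again with no overlap. Start 3 had 1.69, 3.61 and 2.40 against 3.15, 3.14 and 5.50. The highest value at start 3 was that of injured replicate 3, the library with the largest share of mature neuron-like cells (21.4%), and the part of that share in the value was not tested. Start 4 was the only Bdnf start whose log2 change was below 0, at -0.26 ± 0.34, and start 9, the last along the gene, did not exceed 1.06 CPM in any library.

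In HBC-like cells alone, 5 of the 7 Bdnf starts that passed the filter were past the threshold in the higher direction, in a fit where 11.4% of 59673 windows were. These were starts 2, 5, 6, 7 and 8. The windows of all but start 2 share cut sites, so they are not separate observations. At start 7 the uninjured values were 9.27, 15 and 13.2 and the injured ones 17.1, 18.8 and 18.8. The groups did not overlap, and the log2 change was 0.52 ± 0.16 (SE). At start 2 the values were 0.690, 2.15 and 0.528 against 2.66, 2.60 and 4.87, a log2 change of 1.33 ± 0.46. With a library left out that change ranged from 1.03 (without injured replicate 3) to 2.37 (without uninjured replicate 2). Start 2 had 7, 48 and 3 cut sites uninjured and 72, 33 and 38 injured. It passed the low-count filter through the injured libraries, so its call supports nothing. The count of 5 depended on the scaling and on single libraries. It was 1 with scaling by total cut sites, under which 3938 of all windows were higher and 25273 lower. It was 0 with factors from 10 kb bins, under which 3349 were higher and 29239 lower. It was 0 without uninjured replicate 1, 0 without injured replicate 3, 1 without injured replicate 2, 3 without uninjured replicate 3 and 3 without cluster 11, a cluster whose cells had a median of 5.25 times the median cut sites of their libraries. At start 7 the log2 change in HBC-like cells was 0.23 and 0.15 under the other scalings. The direction also depended on the clustering: at a resolution of 1 in place of 0.5 the most open Bdnf start had 13.9 ± 3.10 CPM in uninjured and 11.7 ± 3.21 in injured HBC-like cells (SD, n = 3, not scaled by TMM), against 13.8 ± 3.08 and 16.5 ± 1.34. At that resolution the largest cluster, of 711 cells, nearly all injured, was unnamed. Ntf3, Ngfr and Ntrk2 kept the same order there, with 17.1, 11.9 and 14.6 uninjured and 9.14, 9.39 and 9.08 injured.

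The Bdnf locus had few open tiles, 27 of 306, or 8.82%, in 10 regions. The highest tile was at 109693501, 19.1 kb past the first start and in the non-coding part of an exon, with 3.84, 6.25 and 3.08 CPM uninjured and 6.61, 7.79 and 4.52 injured. Tile values are scaled by TMM over open tiles. An intronic tile 3.55 kb past the first start (109678001) had 1.45, 1.47 and 1.19 against 1.58, 2.42 and 3.24. It overlaps the annotated gene Gm45346, and cut sites carry no strand. None of the 19 Bdnf tiles tested was past the threshold, in a fit of 406452 tiles with 5.48% higher, 1.26% lower and 6.73% either. The groups did not overlap at 2 of these 19, at 20 of 50 tested tiles of Ntf3, 15 of 52 of Ngfr and 17 of 65 of Ntrk2, against 25.3% of all tiles tested.

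**Figure D2:**
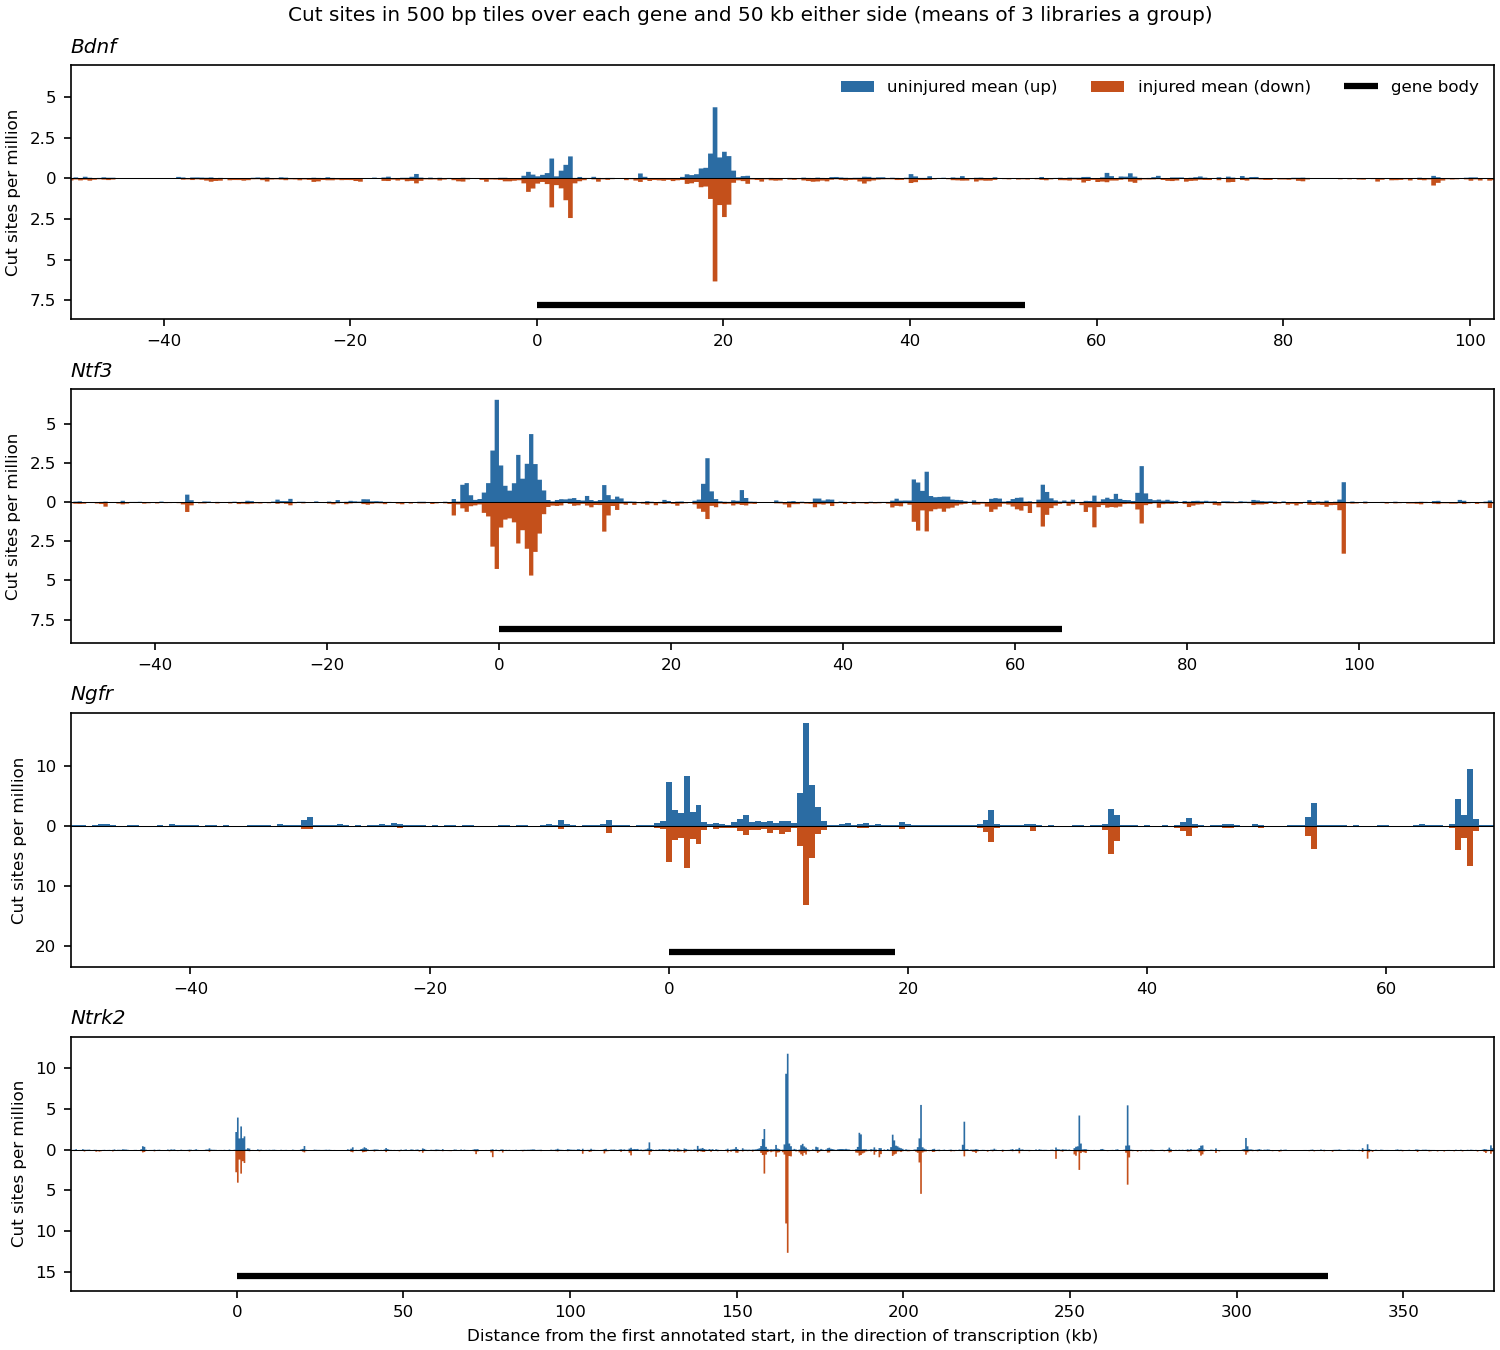
Mean scaled cut sites (CPM) in each 500 bp tile over the 4 genes and 50 kb either side, against the distance in kb from the first annotated start along the direction of transcription; uninjured means point up, injured means point down, and the black bar is the gene body. The Ngfr and Ntrk2 loci peak in introns, 11.5 kb and 165.2 kb past the first start, and the Bdnf and Ntf3 loci near annotated starts.

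Ntf3 was open along a stretch of 15 tiles around its starts. At start 1 (position 126166910) the uninjured libraries had 12.2, 13.4 and 9.30 CPM and the injured ones 8.37, 9.62 and 8.93. The third uninjured library lay below the second injured one, and the other uninjured libraries lay above every injured one. The log2 change was -0.38 ± 0.16 (SE), and -0.64 and -0.88 with the other scalings. Start 3, within the gene, had 6.11, 6.25 and 6.72 against 7.28, 8.36 and 5.47, a log2 change of 0.14 ± 0.21 that turned below 0 under both other scalings.

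In HBC-like cells Ntf3 start 1 had 15.5, 16.5 and 13.9 CPM uninjured and 7.02, 11.8 and 9.22 injured. Every injured library lay below every uninjured one, with a log2 change of -0.75 ± 0.19 (SE). Starts 1 and 2, whose windows share most cut sites, were past the threshold in the lower direction, where 8.97% of windows were. They were so without cluster 11 and with any library but injured replicate 1 left out. They were so under both other scalings too, but there 25273 and 29239 of the 59673 windows were lower as well. Without injured replicate 1 the log2 change at start 1 was -0.53 and neither start was past the threshold.

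Open tiles made up 20.5% of the Ntf3 locus, 68 of 332, in 24 regions. The highest tile, 0.34 kb upstream of start 1 (126167001), had 6.74, 7.89 and 5.03 CPM uninjured and 4.31, 4.13 and 4.27 injured. An intronic tile 24.2 kb past the start (126142501) had 4.85, 2.21 and 1.42 against 1.13, 0.951 and 1.09, a log2 change of -1.38 ± 0.44 (SE). Both tiles were lower in every injured library than in any uninjured one. In HBC-like cells their log2 changes were -1.26 ± 0.23 and -2.54 ± 0.38. The intronic tile had 7.31, 3.44 and 5.08 there against 0.918, 0.519 and 1.30, from 69, 73 and 27 cut sites against 26, 7 and 11. Its injured libraries alone did not meet the low-count filter there, so its call in that fit supports nothing.

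A pair of tiles downstream of Ntf3 were higher after injury. The tile 98.2 kb past the first start (126068501), beyond the end of the gene, had 1.2, 1.36 and 1.34 CPM uninjured and 4.27, 3.33 and 2.21 injured, a log2 change of 1.32 ± 0.32 (SE). A tile 69.2 kb past the start (126097501) had 0.504, 0.412 and 0.407 against 2.71, 1.09 and 0.949, a log2 change of 1.87 ± 0.50. Both were past the threshold in the higher direction, as were 5.48% of all tiles tested. They were the only Ntf3 tiles past it in either direction, 2 of 50 tested or 4%, and the second was singled out for that. The first was past it in no other scaling, with log2 changes of 1.14 and 0.89, and of the libraries left out in turn only injured replicate 3 left it past; without injured replicate 1 its log2 change was 0.98. The second was past it neither in the other scalings nor without uninjured replicate 1 or 2 or injured replicate 1 or 2, where 0 member tiles were higher. In HBC-like cells the first of them had 1.91, 1.55 and 1.69 against 5.26, 4.08 and 4.48. In that fit of 178352 tiles 23.7% were past the threshold in the higher direction and 15.7% in the lower. The first tile was past it there in each of 8 alternatives, which were both scalings and each library left out. The second was so in 7 of the 8, and missed it without injured replicate 1 (log2 change 1.70). Unlike the starts, the tiles were not fitted without cluster 11. Leaving that cluster out took the HBC-like cut sites of uninjured replicate 2 from 20542682 to 8893118. In HBC-like cells the second had 8, 12 and 0 cut sites uninjured and 97, 17 and 19 injured. It passed the low-count filter there through the injured libraries, so its calls in that fit support nothing. Neither tile overlaps another annotated gene, and no measurement here links them to a gene. Summed over the whole locus the level was 84.2, 82.4 and 80.3 uninjured and 82.3, 98.0 and 82.3 injured.

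Ntf5, which encodes the ligand NT-4, was not among the members but came from a list chosen with earlier results of these data known, so its p is no independent support. Its levels were 32.7, 28.5 and 25.8 CPM uninjured and 19.3, 18.9 and 17.5 injured, with no overlap. Ntf5 fell by 0.63 on the log2 scale (SE 0.10; edgeR adjusted p 0.00391), and stayed past the threshold in every alternative run.

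Among the receptors, Ngfr has a single annotated start (position 95587735). The uninjured libraries had 10.2, 10.9 and 13.3 CPM and the injured ones 10.5, 8.99 and 10.7. The groups overlapped, and the log2 change was -0.19 ± 0.15 (SE). It was -0.45 and -0.69 with the other scalings, where the window was past the threshold. In HBC-like cells the values were 9.47, 11.4 and 11.3 against 8.76, 8.19 and 7.81, with no overlap and a log2 change of -0.37 ± 0.20, not past the threshold. It was -0.66 with total cut sites and -0.75 with 10 kb bins, past the threshold in fits where 25273 and 29239 of 59673 windows were lower, and -0.17 without cluster 11, not past it.

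The Ngfr locus had the largest share of open tiles of the 4, 29.3%, or 70 of 239, in 22 regions. Its highest tile lay in an intron 11.5 kb past the start (95576001). It had 21.0, 15.7 and 14.6 CPM uninjured and 16.1, 11.6 and 11.7 injured, a log2 change of -0.37 ± 0.17 (SE). In HBC-like cells it had 26.0, 21.1 and 15.4 against 16.4, 10.0 and 14.2. A tile 1.5 kb past the start (95586001), also intronic, had 9.76, 7.28 and 7.68 against 7.43, 5.99 and 7.40, values that overlapped. A downstream tile 67.0 kb past the start (95520501) had 10.5, 8.84 and 9.13 against 5.63, 5.75 and 8.68, and was lower in every injured library than in any uninjured one.

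A tile 37.0 kb past the Ngfr start (95550501) had 2.08, 1.68 and 4.68 CPM uninjured and 5.01, 4.85 and 4.02 injured. The groups overlapped through uninjured replicate 3, in which 56.4% of barcodes were in unnamed clusters. In HBC-like cells the values were 0.636, 1.04 and 2.07 against 3.88, 4.67 and 4.84, with no overlap and a log2 change of 1.97 ± 0.37 (SE). That value ranged from 1.70 to 2.28 over both other scalings and each library left out. The tile had 6, 22 and 11 cut sites there uninjured and 110, 63 and 41 injured. Its uninjured libraries alone did not meet the low-count filter, so its call in that fit supports nothing. Tiles 54.0 kb and 27.0 kb past the start had log2 changes of 0.01 ± 0.24 and 0.10 ± 0.32. None of the 52 Ngfr tiles tested in all barcodes was past the threshold. The part that the mix of clusters has in the values of uninjured replicate 3 was not tested.

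**Figure D3:**
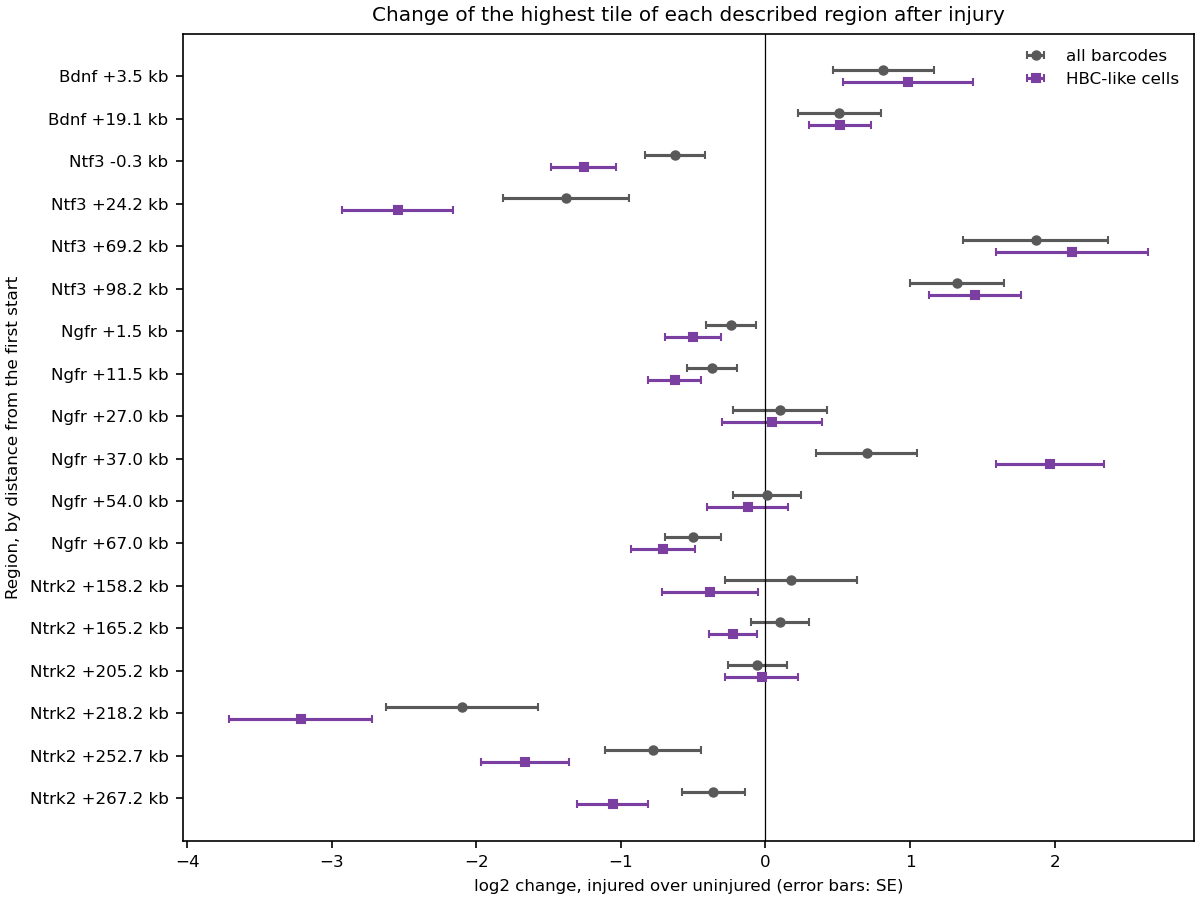
Log2 change after injury, with SE, of the highest tile of each described open region, in all barcodes (circles) and in HBC-like cells (squares); regions are ordered along each gene by their distance in kb from the first start. The Ngfr tile at 37.0 kb has 0.70 and 1.97, and the Ntrk2 tile at 218.2 kb has -2.10 and -3.22.

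Ntrk2 has 7 starts close together, whose windows overlap, and 2 further along the gene. At start 4 (position 58807697), the most open, the uninjured libraries had 9.62, 8.90 and 6.66 CPM and the injured ones 8.82, 8.80 and 7.96. These values overlapped, with a log2 change of 0.03 ± 0.18 (SE). At start 3 the values were 8.10, 7.42 and 8.32 against 8.65, 9.14 and 8.70, without overlap and with a log2 change of 0.15 ± 0.17. Starts 8 and 9 did not exceed 0.229 and 0.338 CPM and did not pass the filter.

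In HBC-like cells Ntrk2 start 4 had 12.3, 11 and 16.2 CPM uninjured and 9.83, 9.85 and 9.60 injured. Every injured library lay below every uninjured one, and the log2 change was -0.39 ± 0.19 (SE). Of the 7 starts tested there 0 were past the threshold. Their log2 changes were all below 0, but without uninjured replicate 3, the highest library at each of them, those of starts 1 to 3 were 0.09, 0.09 and 0.10. With scaling by total cut sites 4 were past it in the lower direction, and with factors from 10 kb bins 6 were, in fits where 25273 and 29239 of the 59673 windows were lower.

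The Ntrk2 gene body is 327402 bp long, and its highest tile lay in an intron 165.2 kb past the first start (58971501). It had 13.9, 13.3 and 8.32 CPM uninjured and 14.9, 12.5 and 10.4 injured. The values overlapped, with a log2 change of 0.10 ± 0.20 (SE), and 85 of 855 tiles of the locus were open. In HBC-like cells this tile had 19.8, 17.6 and 15.8 against 17.7, 15.7 and 11.8. Tiles 158.2 kb and 205.2 kb past the start had 3.34, 3.36 and 1.05 against 4.24, 2.80 and 1.59, and 4.41, 5.71 and 6.49 against 4.79, 5.37 and 5.92, and the groups overlapped at both.

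Single intronic tiles of Ntrk2 had larger log2 changes than its starts. The tile 218.2 kb past the first start (59024501) had 6.05, 2.83 and 1.57 CPM uninjured and 1.08, 0.333 and 0.893 injured. It was the 1 member tile past the threshold in the lower direction, with a log2 change of -2.10 ± 0.53 (SE), and it missed the threshold without uninjured replicate 1 (-1.49), uninjured replicate 2 (-2.29) or injured replicate 2 (-1.85). In HBC-like cells it had 9.64, 3.91 and 9.03 against 0.812, 0 and 1.77. The log2 change there of -3.22 ± 0.49 ranged from -3.75 to -2.66 over the 8 alternatives. Its injured libraries alone did not meet the low-count filter in either fit, so its calls support nothing. A tile 76.7 kb past the start (58883001) had 0, 2 and 9 cut sites uninjured and 48, 17 and 23 injured, and was past the threshold in the higher direction, for which it was singled out. It passed the low-count filter through the injured libraries, so this call supports nothing, and it was not past the threshold under the other scalings or without uninjured replicate 1 or 2 or injured replicate 1 or 2. In HBC-like cells it had 0 cut sites in each uninjured library and 42, 12 and 18 in the injured ones, and passed the filter there in the same way.

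Further along, tiles 252.7 kb and 267.2 kb past the Ntrk2 start had 5.04, 4.45 and 3.23 against 2.44, 1.38 and 3.46, and 6.24, 5.57 and 4.65 against 4.72, 3.33 and 4.66. In HBC-like cells their log2 changes were -1.67 ± 0.30 and -1.06 ± 0.25 (SE). Both overlap the annotated gene 4930415C11Rik. Of all tiles tested in all barcodes, 5.48% were past the threshold in the higher direction and 1.26% in the lower. Over the 4 loci, 3 of the 186 tested were past it in the higher direction and 1 in the lower. These counts were 0 and 0 without uninjured replicate 1, uninjured replicate 2 or injured replicate 2, 0 and 1 without injured replicate 1, 2 and 9 without uninjured replicate 3, and 5 and 4 without injured replicate 3. In HBC-like cells these were 7 and 23 of 87, against 23.7% and 15.7% of all tiles in that fit. They stayed between 6 and 11 and between 20 and 28 with any library left out, the 11 being without uninjured replicate 3. Of the 23 lower tiles 12 were in the Ntrk2 locus. Adjacent tiles of 1 region were counted singly, and some tiles passed the low-count filter through 1 group, so these counts are a description only.

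Across clusters, levels at the most open start are given in CPM of the cut sites of the cells of a cluster in a library, over libraries with 20 or more of its cells. Clusters were made from the same cells, so these levels carry no test. Bdnf was high in HBC-like clusters 1 and 2, at 15.2 to 17.8 in the injured libraries of cluster 1 and 12.3 to 15.4 in the uninjured libraries of cluster 2, ranges that overlapped. It was 5.33 and 18.2 in the HBC-like cluster 11. It was 5.25 to 9.42 in cluster 3, an unnamed cluster of which 95.2% came from injured libraries, and 2.96 to 8.23 in the uninjured libraries of cluster 4, also unnamed. The intronic Bdnf tile at 109678001 had another order: 7.57 and 8.98 in the mature neuron-like cluster 9, 3.32 to 6.19 in the immature neuron-like cluster 7, 1.28 to 2.55 in cluster 1 and 0.459 to 1.65 in cluster 2.

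Ntf3 stood at 15.6 to 19.6 in cluster 2 and 17.1 to 20.4 in the deep HBC-like cluster 11, both mostly uninjured, and at 6.06 to 10.9 in cluster 1. The ranges of clusters 2 and 11 overlapped, and both lay above that of cluster 1. Ntf3 was 11.3 to 13.3 in the immature neuron-like cluster 7, 3.28 and 3.57 in the sustentacular-like cluster 8, and 0.789 to 2.52 in the mature neuron-like clusters 6 and 9.

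Ngfr was highest in unnamed clusters 3 and 4, at 16.0 to 20.5 and, in uninjured libraries, 18.8 to 20.8, ranges that overlapped. It was 9.52 to 10.3 in cluster 2 and 6.50 to 7.74 in cluster 1, so these 3 levels were apart. In the injured libraries of cluster 4 it was 10.7 and 14.6. The intronic Ngfr tile at 95576001 had 0 cut sites in the mature neuron-like clusters 6 and 9, which allows up to 0.395 and 0.349 CPM, while Ngfr's start had 4.73 and 6.10 in cluster 6 and 10.2 and 15.1 in cluster 9. The downstream Ngfr tile at 95550501 had 7.94 to 13.0 in cluster 3, 3.62 to 5.10 in cluster 1 and 0.602 to 1.38 in cluster 2, and 0 cut sites in clusters 6 and 9. In uninjured replicate 3 it had 10.2 in cluster 5, which drew 175 of its 214 cells from that library. No cluster was named for ensheathing glia: of 7 glial markers 0 were past the threshold and 3 lay under 1 CPM, and their summed level was 54.9 to 57.5 uninjured and 49.4 to 56.9 injured.

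Ntrk2 was lower in clusters 3 and 4, unnamed but closest to the basal marker list, than in the HBC-like clusters. Ngfr was highest in clusters 3 and 4. Ntrk2 was 9.64 to 16.3 in cluster 2, 14 and 14.2 in cluster 11 and 8.41 to 9.34 in cluster 1. In cluster 3 Ntrk2 was 4.89 to 7.51, and in the uninjured libraries of cluster 4 it was 1.98 to 4.33. The ranges of clusters 11 and 2 overlapped, and those of clusters 2, 1, 3 and 4 each lay apart. Ntrk2 was 11.5 to 12.7 in the immature neuron-like cluster 7. The intronic Ntrk2 tile at 59024501 had 5.29 to 10.8 in cluster 2, 0 to 1.91 in cluster 1 and 1.34 to 3.99 in cluster 3, and 0 cut sites in clusters 5, 6 and 9.

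**Figure D4:**
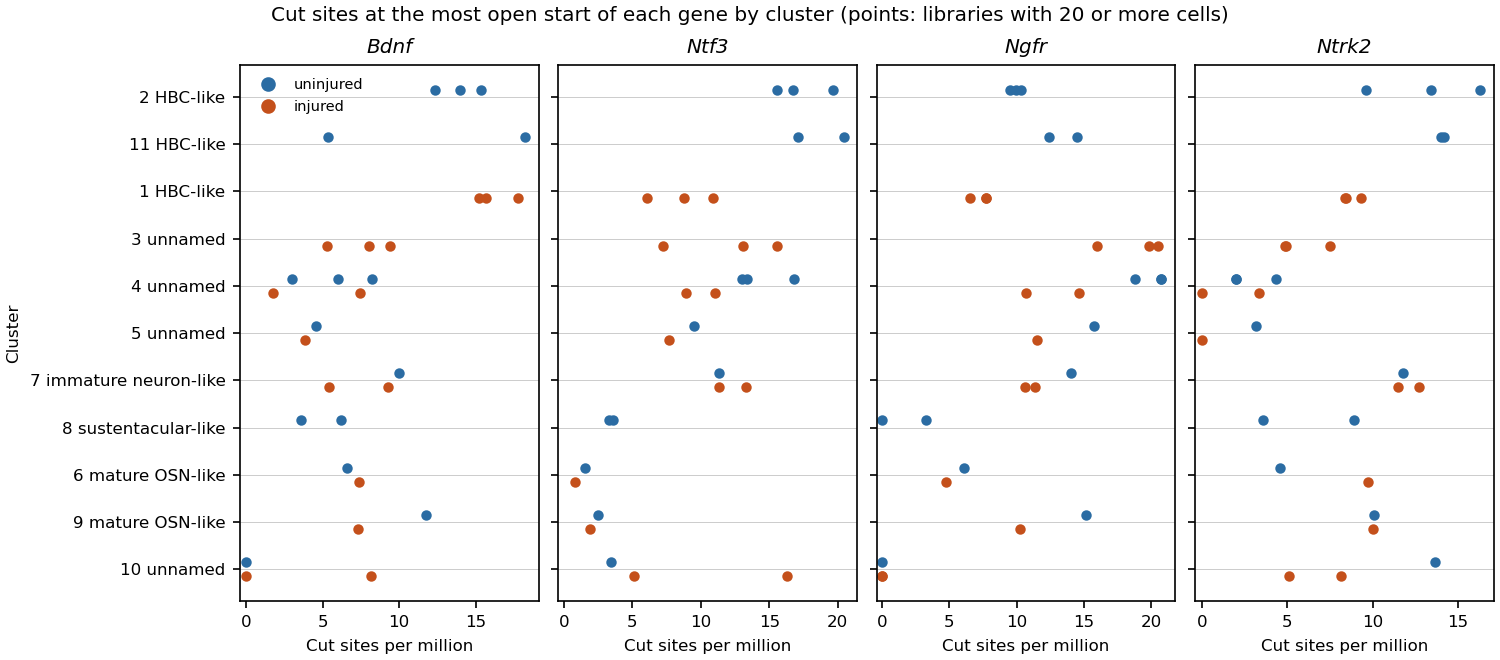
Cut sites in CPM (not scaled by TMM) at the most open start of each gene by cluster, with a point for every library that has 20 or more cells of the cluster. Ngfr lies at 16.0 to 20.5 in cluster 3, where Ntrk2 lies at 4.89 to 7.51, and Ntf3 lies at 0.789 to 2.52 in the mature neuron-like clusters 6 and 9.

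Ntrk3, which encodes the NT-3 receptor TrkC, was not past the threshold and differed by a log2 of 0.14 (SE 0.19, adjusted p 0.703 from edgeR). The 4 genes of the sortilin family, receptors that bind neurotrophin precursors with p75NTR, had log2 changes of -0.01 (Sort1), 0.54 (Sorcs1), -0.10 (Sorcs2) and 0.27 (Sorcs3), and 0 of them were past the threshold. With factors from 10 kb bins Sort1 and Sorcs2 were past it in the lower direction, at -0.52 and -0.63, and Sorcs2 also with scaling by total cut sites, at -0.38.

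Of 64 further genes of neurotrophin signalling, each read at its most open start, 2 rose and 7 fell, or 3.13% and 10.9%. Without injured replicate 1 these were 1 and 3, without uninjured replicate 1 they were 0 and 4, without injured replicate 2 they were 1 and 4, without uninjured replicate 2 they were 1 and 5, and without uninjured replicate 3 they were 0 and 8. Over all 17651 genes read in this way the shares were 2.53% and 2.46%, and the median log2 change was -0.10 for the list and -0.02 for all. With scaling by total cut sites 38 of the 64 were lower, and with factors from 10 kb bins 48 were. None of the 7 processing proteases or the 17 Trk adaptors and effectors passed the threshold. Of the 10 partners of p75NTR, Maged1, which encodes a p75NTR-binding MAGE protein, fell by 0.43 on the log2 scale (SE 0.11; edgeR adjusted p 0.0487). Without uninjured replicate 1 or 2 or injured replicate 1 or 3 Maged1 missed it, with edgeR adjusted p from 0.0845 to 0.176.

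Among 10 genes that neurotrophins are known to induce, 5 fell and 0 rose. The list was chosen with earlier results of these data known. Over all genes read in this way 2.46% fell. Those of the list that fell were the immediate early genes Egr1, Egr2, Fos, Junb and Nr4a1, which many other signals also induce. Arc, also on the list, did not pass, with overlapping groups and a log2 change of -0.41 (edgeR adjusted p 0.147). Nr4a1 had 82.3, 65.5 and 61.8 CPM uninjured and 49.0, 43.8 and 43.2 injured, and fell by 0.62 on the log2 scale (SE 0.10; edgeR adjusted p 0.00498). The others fell by 0.51 (Egr1), 0.46 (Egr2), 0.49 (Fos) and 0.40 (Junb), with edgeR adjusted p of 0.00685, 0.00925, 0.0465 and 0.0164. Nr4a1 stayed past the threshold whichever library was left out. Egr1 missed it without injured replicate 2 (edgeR adjusted p 0.0524), Egr2 without injured replicate 1 (0.0518), Junb without uninjured replicate 1 or injured replicate 1 or 2 (0.0675 to 0.0706) and Fos without any library but uninjured replicate 3 (0.0759 to 0.165). Sustentacular-like cells made up 1.98%, 9.22% and 5.88% of barcodes uninjured and 0.0747%, 0.476% and 0.536% injured. Of 8 sustentacular markers 2 fell, 0 rose and 2 lay under 1 CPM, with a median log2 change of -0.51 and a summed level of 78.6 to 87.7 uninjured and 58.4 to 75.2 injured. In HBC-like cells alone, the log2 changes of the 5 genes were -0.71 (Egr1), -0.56 (Egr2), -0.68 (Fos), -0.51 (Junb) and -0.85 (Nr4a1). The HBC-like cells of the groups came from different clusters, and 8.97% of windows were lower past the threshold in that fit. The part that the mix of cells has in the falls was not tested. Among 12 regulators of Bdnf, only Mef2c, a transcription factor gene, passed the threshold. It had 3.21, 5.6 and 4.60 against 21.5, 16.4 and 9.74, and rose, with a log2 difference of 1.80 (SE 0.29, adjusted p 0.00969 from edgeR). Mef2c missed the threshold without uninjured replicate 1 or 3 (edgeR adjusted p 0.0542 and 0.0533).

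The genes most like each member over the 6 libraries were those with the highest Pearson r of log2 levels among 13174 genes, each at its most open start. For Bdnf they were Sh3bgrl2, Acat3 and Ociad2 (r of 0.99, 0.99 and 0.98), and for Ntf3 Zfp710, Ccdc24 and Azin2 (0.99 each). For Ngfr they were Nomo1, Plpp6 and Cox6b1 (0.99, 0.99 and 0.98), and for Ntrk2 Eif2ak1, Znrf1 and Vwa7 (0.99, 0.99 and 0.98). Genes within a library share its depth, scaling and cell mix, so over 6 libraries the highest of so many r values is a description only.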

How the data were processed

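Single-cell ATAC-seq fragment files and peak-by-barcode matrices were deposited; the submitters' processing notes name Cell Ranger 2.0.0 and mm10, and the matrix headers give software version 1.2.0, per the file headers. The deposited fragment files list fragments with their read counts; each fragment was counted once here, as 2 cut sites, over barcodes with 2000 or more fragments. Starts came from a GENCODE annotation on GRCm38. Count tables were fitted over all features with edgeR 4.0.16 (quasi-likelihood, robust, TMM, filterByExpr) and Benjamini-Hochberg adjustment, tested on simulated data; DESeq2 1.42.0 was an alternative. Clusters came from TF-IDF, truncated SVD and Leiden at a resolution of 0.5 over 4403 cells, with no doublet caller, so doublets were kept. Each animal gave 1 library. The 4 genes, the gene lists and the rules for naming regions were chosen with earlier results of these data known. Regions were named by level (the 3 highest per locus) and by the 3 largest rises and falls among those with a mean of at least 2 CPM. Other pathway genes were named when past the threshold or when ligands or receptors; some genes counted in the list are not reported here. Tiles with few cut sites carry a large counting error, and limits for 0 counts (3 cut sites) cover counting error only. A start or tile could pass the low-count filter through the group where it was high.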

Additional observations from a re-analysis of the deposited data

How the results depend on the processing

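With total cut sites, 24451 starts were lower, with 3 member starts and 38 pathway genes, and among open tiles 9839 were lower, with 0 member tiles higher and 4 lower. With factors from 10 kb bins, 37289 starts were lower, with 3 member starts and 48 pathway genes, and 13764 tiles were higher and 20445 lower, with 0 member tiles higher and 14 lower. DESeq2 called 2779 starts higher and 2549 lower, 11 pathway genes lower and 8 member tiles lower. Windows of 500 bp left 832 starts lower. Barcodes with at least 20% of cut sites in open tiles left 977 starts lower, and 1 member tile higher and 2 lower. HBC-like cells gave 6829 starts higher and 5353 lower, 5 member starts higher and 2 lower, 5 pathway genes higher and 13 lower, 42243 tiles higher and 28068 lower, and 7 member tiles higher and 23 lower.

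In HBC-like cells, member starts were 1 higher and 7 lower with total cut sites, 0 and 9 with 10 kb bins (over all windows 3938 and 25273, and 3349 and 29239), and 3 were higher without cluster 11; these alternatives, those of the HBC-like tiles and the removal of shared barcodes were chosen after seeing the data. At a clustering resolution of 1 the injured HBC-like level was 11.7 CPM for Bdnf and 9.39 for Ngfr, against 16.5 and 7.46 at 0.5; the uninjured levels were 13.9 and 11.9, so that the order of the groups turned for Bdnf.

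Leaving out each library in turn gave 497 to 3225 starts higher and 240 to 2884 lower, 0 to 2 pathway genes higher and 3 to 8 lower, 4704 to 33958 tiles higher and 659 to 10685 lower, and 0 to 5 member tiles higher and 0 to 9 lower. No member start passed in any of these. In HBC-like cells it gave 0 to 6 member starts higher and 0 to 2 lower, and 6 to 11 member tiles higher and 20 to 28 lower.

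Same-numbered libraries share an age label, and those of replicate 3 also share 34 barcodes and a low HBC-like share. Their deviations correlated by 0.046, 0.16 and 0.18 over starts, and the numbers were not taken as pairs. Over starts each uninjured library correlated best with the injured one of its number. Injured replicate 1 correlated better with uninjured replicate 2 (0.066) than with uninjured replicate 1. With the replicate number as a block, 3296 starts were higher and 4712 lower, 2 member starts (Bdnf 7 and 8) were higher, 17 pathway genes were lower, and 5 member tiles were higher and 3 lower.

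On simulated data, 189 of 200 starts changed by a log2 of 1 were recovered, but 5 of 200 tiles, and 136 of 200 tiles at a log2 of 2. Tiles with smaller differences were thus mostly not recovered there. The simulation took its spread from the tile fit of all barcodes and changed few features, so these shares do not carry over to other fits. The HBC-like tile fit had a coefficient of variation between libraries of 0.205 against 0.369. In it the Ngfr tile at 95576001 was past the threshold with a log2 change of -0.63.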

Other observations

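Ntf5 lay at 36.4 to 52.1 CPM in the uninjured libraries of cluster 2 and at 16.8 to 19.9 in the injured libraries of cluster 1. In the unnamed cluster 3, from injured libraries, Ntf5 lay at 23.9 to 30.1, between these HBC-like clusters. In the mature neuron-like cluster 6, Ntf5 lay at 0 and 1.02.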
